A study of Rattus norvegicus with 8 samples.

Results

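The suppressors of cytokine signalling (SOCS family) comprise 8 genes, Socs1 to Socs7 and Cish, and they were followed here in the RNA of rat whole blood. Members were chosen by gene name, and 7 of the 8 were found among the 17446 genes of the count table. Socs7 was not analysed here. The family was selected on a measured value, the level of Socs1 after against before Chios mastic gum (CMG) in rats infused with angiotensin II (AngII). Values of members in that contrast are therefore given as a description without a test. The same holds where its libraries enter another comparison.

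The 8 libraries came from male wild type Wistar rats, in 2 models of hypertension with 2 libraries before and 2 after CMG in each. An age of 12 to 14 weeks was stated for all rats, though the samplings of a model lay 4 weeks apart. In the AngII model, AngII was given at 0.4 mg/kg/day through an implanted osmotic minipump made to last 4 weeks. Blood before CMG was taken at week 1 and blood after CMG at week 5. In the DOCA–HS model, the mineralocorticoid deoxycorticosterone acetate was injected weekly at 100 mg/kg with 0.9% NaCl and 1% KCl in the drinking water, and the blood was taken at week 3 and week 7. CMG, the resin of Pistacia lentiscus var. Chia, was given by gavage at 220 mg/kg daily for the 4 weeks between the samplings. Libraries of hypertensive rats given the vehicle were not analysed here, so CMG, 4 further weeks of the model and the time on the pump cannot be told apart in any difference between before and after. It was not stated whether libraries with the same number came from the same rat, and p-values measure the spread between these libraries only.

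SOCS proteins close a feedback loop. A cytokine binds its receptor, the receptor-bound Janus kinases (JAKs) phosphorylate STAT transcription factors, and STATs switch on target genes that include Cish, Socs1, Socs2 and Socs3 themselves. Each family protein carries an SH2 domain, which binds phosphotyrosine, and a SOCS box, which joins elongins B and C and a cullin into a ubiquitin ligase. SOCS1 and SOCS3 can in addition block the JAK kinase directly. In blood, SOCS1 is best known for restraining interferon and common gamma chain cytokine signals in lymphocytes. SOCS3 is best known for restraining IL-6 and G-CSF signals in myeloid cells. The AngII type 1 receptor has also been described to act through JAK2.

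RefSeq promoter windows of the rat assembly GRCr8 were available for 5 members (Socs1, Socs3, Socs4, Socs6 and Cish), each with 250 bases before and 50 bases after an annotated transcript start. GRCr8 is another assembly than rn6, to which the reads were aligned, so these positions apply to the sequences alone. The windows were searched on both strands for TTCNNNGAA, the palindromic repeat that STAT dimers recognise, and for GAAANNGAA, a repeat that interferon regulatory factors recognise. Of 33469 RefSeq promoter windows of that length, 8.874% held the STAT repeat and 9.713% the IRF repeat. At least 2 matches were found in 0.5468% and 0.7589% of them, respectively. The 250 bases before the start are shown for Socs1, whose level set the AngII libraries before CMG apart, and for Cish, whose level did not. Cish held the most STAT repeats among the 5 members searched. Capitals mark the matches.
Socs1 (GRCr8, chr10:5389324-5389573, plus strand): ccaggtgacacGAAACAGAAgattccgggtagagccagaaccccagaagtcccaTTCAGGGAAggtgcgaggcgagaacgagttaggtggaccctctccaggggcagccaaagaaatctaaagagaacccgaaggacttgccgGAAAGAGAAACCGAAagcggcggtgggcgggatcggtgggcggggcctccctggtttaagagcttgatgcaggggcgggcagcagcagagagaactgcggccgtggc
Cish (GRCr8, chr8:116850719-116850968, plus strand): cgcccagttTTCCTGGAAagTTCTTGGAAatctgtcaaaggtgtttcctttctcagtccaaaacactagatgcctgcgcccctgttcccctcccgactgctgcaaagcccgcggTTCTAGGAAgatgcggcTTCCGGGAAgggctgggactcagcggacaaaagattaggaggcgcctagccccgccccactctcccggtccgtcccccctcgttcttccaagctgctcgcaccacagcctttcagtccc
The Socs1 sequence held 1 STAT repeat, which began 196 bases before the start. It also held 3 IRF repeats, which began 239, 107 and 101 bases before the start, the last pair overlapping in 1 capital run. The Cish sequence held 4 STAT repeats, which began 241, 230, 136 and 119 bases before the start, and no IRF repeat. Neither repeat was found in the windows of Socs3, Socs4 and Socs6. A match is a stretch of letters and was not tested as a binding site in these animals.

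Depth limited what could be seen of these genes. The libraries held 4149104 to 13205565 counts, but hemoglobin genes took most of them and 651764 to 4490083 counts remained outside hemoglobin. The second DOCA–HS library after CMG stood apart, with 84.3% of its counts in hemoglobin and 2686 genes reaching 10 counts, where the other 7 libraries had 6097 to 8280 such genes. In that library a single count equals 0.703 normalized CPM (CPM, counts scaled to library size with the trimmed mean of M values, TMM), so all members there rest on 0 to 2 counts, and a count of 0 allows up to 2.11 normalized CPM (3 counts, a one-sided bound). Fold changes after against before CMG in DOCA–HS are given with it and then without it, where the lone library after CMG is taken to vary like the others. The difference of the changes between models and the fold changes between models after CMG are given only with it. Levels are compared between libraries and not between genes, as no transcript lengths were used.

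Socs1, which encodes the family member that inhibits JAK1, JAK2 and TYK2, was highest in both AngII libraries before CMG. It had 63 and 28 counts there, 4 and 14 counts in AngII after CMG, 22 and 11 counts in DOCA–HS before CMG, and 8 and 1 counts in DOCA–HS after CMG. As normalized CPM these were 4.95 and 4.73 in AngII before CMG against 0.639 and 1.03 after, and 1.22 and 1.17 in DOCA–HS before CMG against 0.615 and 0.703 after. The 2 AngII libraries before CMG lay close together and above the other 6, whose highest value was 1.22. The exact Poisson 95% intervals of those 2 libraries, 3.80 to 6.33 and 3.14 to 6.83 normalized CPM, cover counting error only. Both lay above the intervals of 5 of the other 6 libraries, which reached 2.09 at most, while that of the shallow library, 0.0178 to 3.91 from 1 count, overlapped both. The group means were 4.84 ± 0.157 and 0.837 ± 0.280 in AngII before and after CMG and 1.19 ± 0.0354 and 0.659 ± 0.0622 in DOCA–HS (SD, n = 2 each). The groups were thus ordered AngII before, DOCA–HS before, AngII after and DOCA–HS after, and the values of the last pair overlapped. The values of DOCA–HS before and AngII after CMG did not overlap, but their counting intervals did. In whole blood, fewer cells of a type and less RNA per cell cannot be told apart.

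Socs3, which encodes the inhibitor that docks on gp130 and on the G-CSF receptor, was also highest in AngII before CMG but with a wide spread. Its counts were 779 and 120 in AngII before CMG, 64 and 73 after, 149 and 38 in DOCA–HS before CMG, and 76 and 2 after. In normalized CPM, AngII held 61.2 and 20.3 before and 10.2 and 5.40 after CMG, and DOCA–HS held 8.25 and 4.03 before and 5.84 and 1.41 after. Both AngII libraries before CMG again lay above the other 6, yet they differed from each other by more than their counting intervals (57.0 to 65.6 and 16.8 to 24.2). The group means were 40.7 ± 28.9 and 7.81 ± 3.42 in AngII and 6.14 ± 2.98 and 3.62 ± 3.14 in DOCA–HS (SD, n = 2 each). The libraries of the 3 lower groups overlapped.

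Cish, which encodes CIS, a STAT5-induced inhibitor, showed no such pattern. It had 18 and 19 counts in AngII before CMG, 13 and 35 after, 23 and 26 in DOCA–HS before CMG, and 29 and 1 after. The normalized CPM were 1.41 and 3.21, 2.08 and 2.59, 1.27 and 2.76, and 2.23 and 0.703 in the same order. All 4 groups overlapped. Socs2, which encodes the regulator of growth hormone signalling, had 8 and 5 counts in AngII before CMG, 9 and 4 after, 20 and 6 in DOCA–HS before CMG, and 12 and 0 after. These were 0 to 1.44 normalized CPM, with overlapping groups.

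Socs4 and Socs5, a closely related pair with long N-terminal regions, were low or variable. Socs4 had 14 and 1 counts in AngII before CMG, 3 and 10 after, 17 and 0 in DOCA–HS before CMG, and 19 and 1 after, which spans 0 to 1.46 normalized CPM. Socs5 had 47 and 21 counts in AngII before CMG, 18 and 77 after, 116 and 49 in DOCA–HS before CMG, and 78 and 2 after. Its normalized CPM were 3.69 and 3.54, 2.88 and 5.69, 6.42 and 5.20, and 5.99 and 1.41 in that order. The 2 DOCA–HS libraries before CMG lay above the 2 AngII libraries before CMG. The counting interval of the second, 3.85 to 6.88, overlapped those of both AngII libraries (2.71 to 4.91 and 2.19 to 5.42). That of the first, 5.31 to 7.70, overlapped only that of the second AngII library. Socs6, whose protein has been linked to insulin receptor and KIT signalling, was the steadiest member. It had 14 and 9 counts in AngII before CMG, 8 and 23 after, 28 and 17 in DOCA–HS before CMG, and 18 and 2 after, which came to 1.10 to 1.80 normalized CPM over all 8 libraries. Its 2 DOCA–HS libraries before CMG also lay above the 2 AngII libraries before CMG. Their counting intervals overlapped (1.03 to 2.24 and 1.05 to 2.89 against 0.601 to 1.84 and 0.695 to 2.88). The share of all genes with this order was not counted, so nothing is read from it for Socs5 and Socs6.

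**Figure D1:**
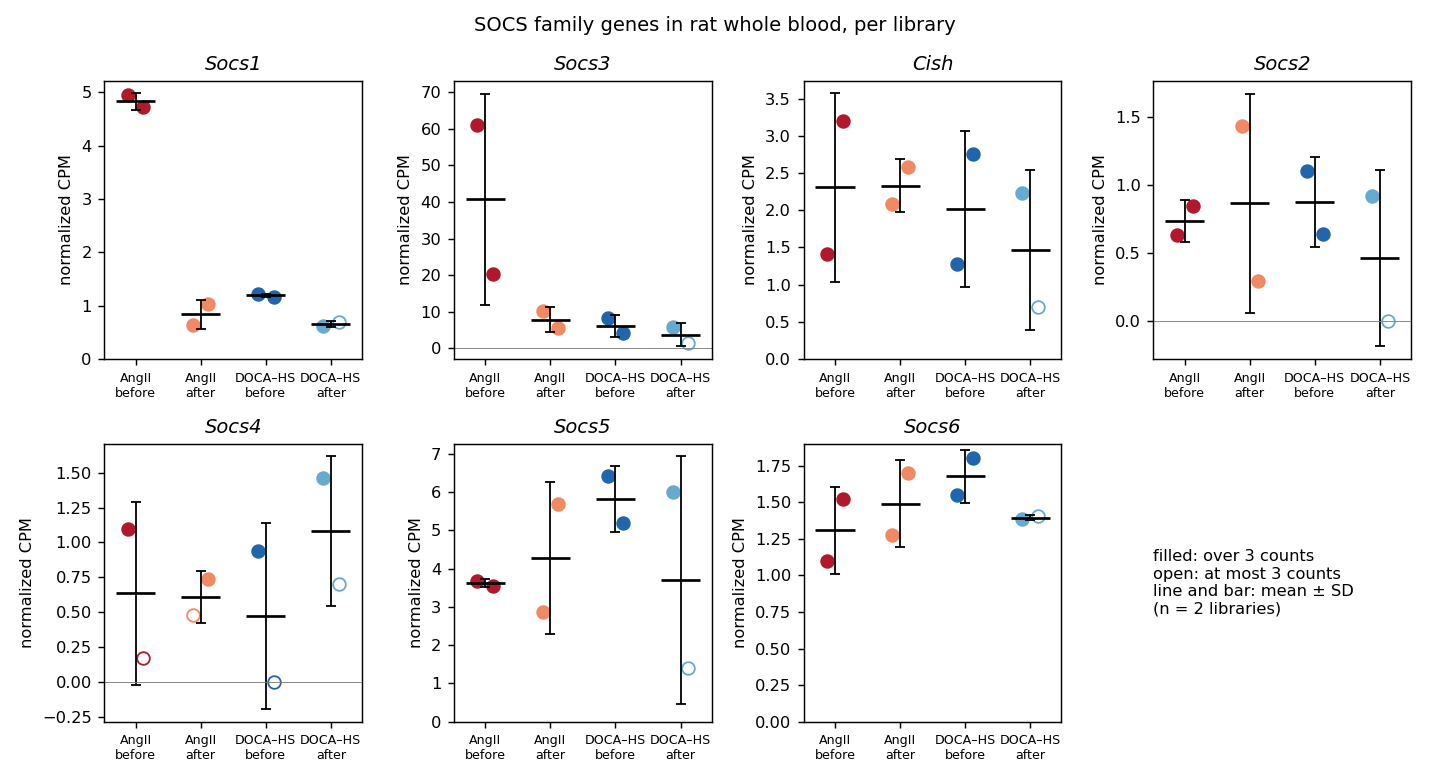
Normalized CPM (y axis, from TMM scaling over 8 libraries) of the 7 SOCS family genes in each library, by model and by before or after CMG (x axis). Points are libraries, open where they rest on at most 3 counts, and the line and bar are the mean ± SD of 2 libraries. Socs1 and Socs3 are highest in both AngII libraries before CMG (4.95 and 4.73 for Socs1, 61.2 and 20.3 for Socs3), and no other member separates these 2 libraries from the other 6 in that direction.

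Of the 7 members, 2 (Socs1 and Socs3) had both AngII libraries before CMG above the other 6, a pattern met by 4.17% of the 7994 genes fitted over all libraries. Both also had both AngII libraries after CMG below both before, as did 17.6% of genes. These counts include the values on which the family was selected. The separation of Socs1 was kept under other scalings. As CPM of total counts, its lowest AngII library before CMG stood at 3.67 and the highest of the other 6 at 2.28. As CPM of counts outside hemoglobin these were 12.2 and 5.998. For Socs3 the same values were 15.7 and 15.5 CPM of total counts, so that its second AngII library before CMG hardly differed from the first DOCA–HS library before CMG, and 52.2 and 40.6 outside hemoglobin.

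A measure without any scaling of libraries was the count of Socs1 or Socs3 per 100 counts of the other 5 members summed, a denominator chosen after the values were seen. Socs1 stood at 62.4 and 50.9 in AngII before CMG, at 7.84 and 9.40 after, at 10.8 and 11.2 in DOCA–HS before CMG and at 5.13 and 16.7 after. The last value rests on 1 Socs1 count against 6. Socs3 stood at 771 and 218 in AngII before CMG and at 125 and 49.0 after. In DOCA–HS it stood at 73.0 and 38.8 before and 48.7 and 33.3 after CMG. Both genes were highest against these other members in the AngII libraries before CMG. This is a description, as it reuses the values on which the family was selected. Socs5 and Socs6, both in the denominator, had their lowest group means in AngII before CMG (3.62 and 1.31 normalized CPM).

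**Figure D2:**
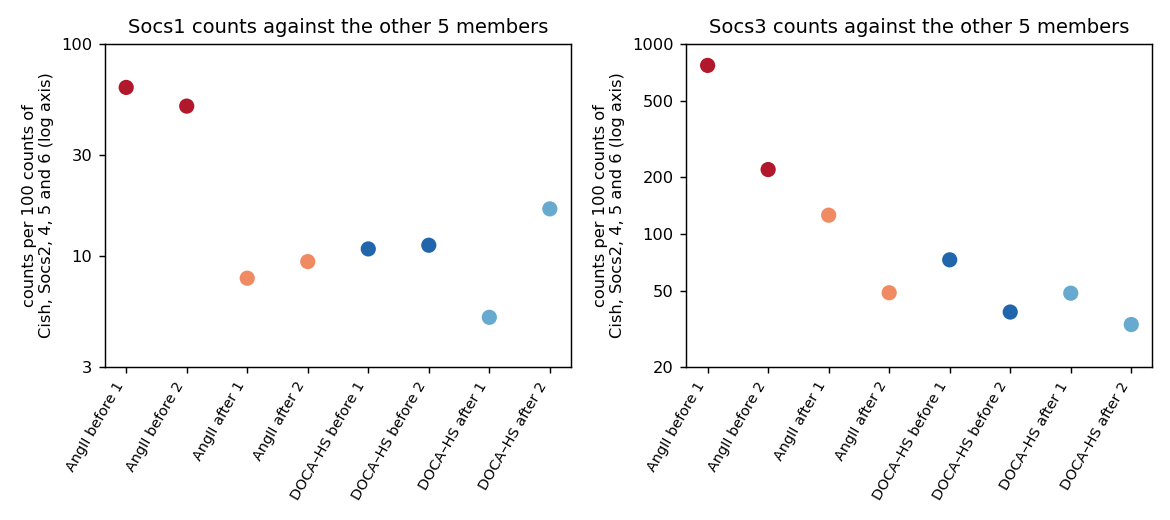
Counts of Socs1 (left) and Socs3 (right) per 100 summed counts of Cish, Socs2, Socs4, Socs5 and Socs6 in each library (log y axis, 1 point per library on the x axis). The AngII libraries before CMG hold 62.4 and 50.9 for Socs1, against 16.7 at most in the other 6, and 771 and 218 for Socs3, against 125 at most.

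After against before CMG in the AngII model, Socs1 was 5.37-fold lower and Socs3 5.28-fold lower in the fit, while Socs5, Socs6 and Cish were at most 1.23-fold higher. Their log2 fold changes were -2.42 ± 0.40 for Socs1, -2.40 ± 0.58 for Socs3, 0.30 ± 0.38 for Socs5, 0.27 ± 0.51 for Socs6 and 0.15 ± 0.47 for Cish (SE, 2 libraries against 2). Socs2 and Socs4 fell below the filter on low counts in this model and have no fitted value. Under the study's criterion, a log2 fold change beyond 1.5 with an unadjusted p of at most 0.05, 2 of the 5 members fitted were lower and 0 were higher. Over all 7201 genes fitted, 0.333% were lower and 0.903% higher, 479 genes had an unadjusted p of at most 0.05 and 0 passed an adjusted p of 0.05 in edgeR, against 3 in DESeq2. As this contrast selected the family, nothing is read from that count. Without the first AngII library before CMG, the log2 fold change of Socs3 was -1.38 and no longer met the criterion, while that of Socs1 was -2.40.

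Several marker lists of blood cells moved with this contrast. From before to after CMG in AngII, the summed level of 8 markers of NK and cytotoxic lymphocytes went from 38.4 to 43.9 up to 70.5 to 76.9 normalized CPM, and that of 8 monocyte markers from 31.4 to 63.1 up to 80.6 to 109. The 10 T cell markers went from 208 to 222 down to 154 to 189, and the 7 erythroid markers other than hemoglobin from 21149 to 27349 down to 13305 to 20977. Single markers did not all follow the sums. Of the 10 T cell markers 3 had a log2 fold change above 0, among them Cd4 (0.58 ± 0.38, SE). Of 6 fitted monocyte markers 5 did, while Cd14 had -0.89 ± 0.60. All 6 fitted NK and cytotoxic markers and 0 of 7 erythroid markers did. Alas2 held most of the erythroid sum (15667 and 21821 before CMG). The sums of the 7 B cell markers (59.0 to 80.8 and 61.5 to 106), the 9 neutrophil markers (239 to 252 and 212 to 241) and the 7 platelet markers (179 to 645 and 60.4 to 581) overlapped. Cd163 of monocytes and Gp1bb of platelets were at 0 in all 8 libraries, Klrb1 of NK cells in all 4 AngII libraries, Ms4a7 of monocytes in both AngII libraries before CMG and Ltf of neutrophils in both after. Of all these markers 1, Gzma, which encodes the cytotoxic granule protease granzyme A, met the criterion in AngII, at a log2 fold change of 1.59 ± 0.30 (SE). The part of these differences in the values of Socs1 and Socs3 was not tested.

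In the DOCA–HS model, where the members could be tested, no SOCS gene passed the criterion. All 7 were fitted, and 0 were higher and 0 lower, while over all 7720 genes 1.77% were higher and 0.259% lower. At an unadjusted p of at most 0.05, 247 genes and 0 members were found, and 0 genes passed an adjusted p of 0.05 in edgeR and in DESeq2. Socs1 had a log2 fold change of -0.92 ± 0.73 (SE, 95% interval -2.58 to 0.74). For Socs3 the log2 fold change was -0.49 ± 0.61 (-1.89 to 0.91). Cish had -0.04 ± 0.67 (-1.56 to 1.48), Socs5 -0.37 ± 0.56 (-1.65 to 0.92) and Socs6 -0.26 ± 0.59 (-1.60 to 1.08). Socs2 had -0.23 ± 0.83 (-2.13 to 1.68) and Socs4 1.21 ± 1.03 (-1.16 to 3.58), the widest intervals of the family. The adjusted p was 0.996 for each of the 7 members (edgeR's quasi-likelihood test, Benjamini-Hochberg over all genes tested).

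Both DOCA–HS libraries after CMG lay below both before CMG for 2 of the 7 members, Socs1 and Socs6, a pattern met by 21.2% of genes. Without the second library after CMG, the log2 fold change of Socs1 was -0.94 and that of Socs6 -0.25, and 0 members met the criterion. That of Socs3 was then -0.10, that of Socs5 0.04, that of Cish 0.24, that of Socs2 0.03 and that of Socs4 1.36. Without the first library after CMG, which leaves the shallow one alone with 2 counts for each gene, Socs3 (-2.16) and Socs5 (-2.05) met the criterion as lower, in a fit where 13.6% of all genes did. In this model the summed B cell markers went from 92.5 to 126 down to 35.1 to 76.8, the T cell markers from 222 to 236 down to 143 to 177, the platelet markers from 220 to 307 up to 638 to 958 and the NK and cytotoxic markers from 25.6 to 44.7 up to 46.2 to 73.1 normalized CPM. The monocyte, neutrophil and erythroid sums overlapped. In the shallow library the platelet markers Pf4, Treml1 and Gp9 lay above both libraries before CMG, and Gp1ba, Itgb3 and Ppbp below both. By the criterion Gzma and the platelet genes Pf4 and Treml1 were higher and Ngp, a neutrophil granule gene, was lower. Without the shallow library Gzma (1.76) and Ngp (-4.42) still met it, Pf4 (1.32) and Treml1 (0.88) did not, and Camp (-2.21), Cx3cr1 (1.58) and Itgb3 (1.60) met it in addition. The first library after CMG alone held 76.8 for the B cell, 177 for the T cell, 638 for the platelet and 46.2 for the NK and cytotoxic sum. The part of these shifts in the members' values was not tested.

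**Figure D3:**
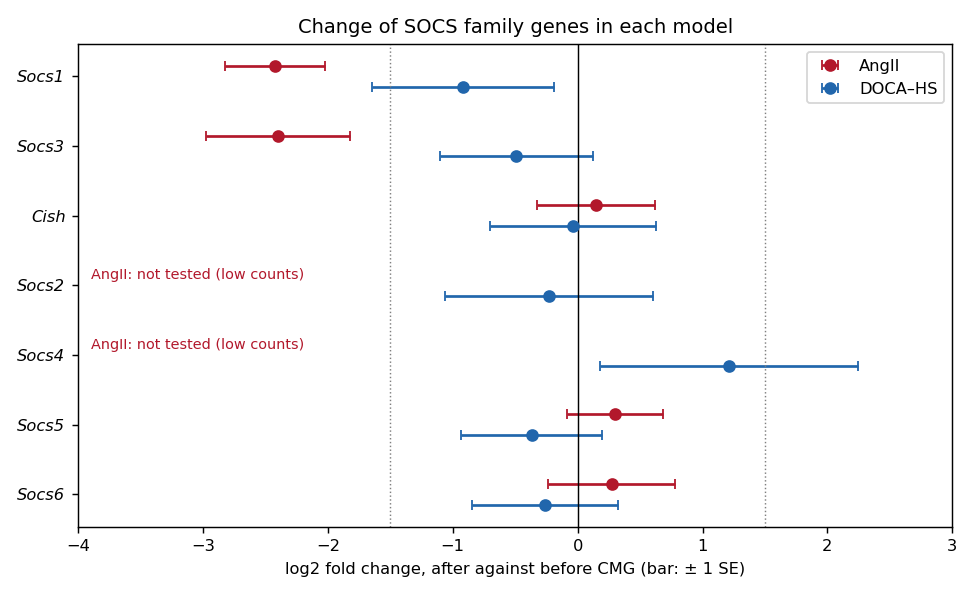
Log2 fold change after against before CMG (x axis, bar ± 1 SE) of each SOCS family gene (y axis) in the AngII (red) and DOCA–HS (blue) models, 2 libraries against 2. Dotted lines mark a log2 fold change of 1.5 either way. In AngII, Socs1 (-2.42) and Socs3 (-2.40) lie beyond the lower line and the other 3 fitted members near 0, and in DOCA–HS all 7 members lie between the lines.

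The change in DOCA–HS minus that in AngII was 1.53 ± 0.74 for Socs1 and 1.92 ± 0.93 for Socs3 on the log2 scale (SE, fit over 8 libraries). For Socs4, with 0 to 19 counts per library, it was 1.41 ± 1.46. For Cish it was -0.15 ± 0.84, for Socs2 -0.31 ± 1.25, for Socs5 -0.61 ± 0.70 and for Socs6 -0.52 ± 0.71. These differences contain the contrast that selected the family and were not tested.

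Between the models, the separation lay before CMG. Before CMG, Socs1 was 4.02-fold lower (log2 fold change -2.01 ± 0.41) and Socs3 6.58-fold lower (-2.72 ± 0.65) in DOCA–HS than in AngII (SE, 2 libraries against 2). Of the 7 members, these 2 were lower and 0 higher by the criterion, where 0.413% of 7994 genes were lower and 0.425% higher. This comparison shares the AngII libraries before CMG with the contrast that selected the family. No p is therefore given, and nothing is read from that count of members. Scaled to total counts, which moved the median of all genes up by 0.86 on the log2 scale, the values were -1.21 for Socs1 and -1.89 for Socs3 and neither met the criterion. Scaled to counts outside hemoglobin they were -1.29 and -1.99, and Socs3 met it. After CMG, 0 of the 7 members met the criterion between the models, where 1.09% of genes were higher in DOCA–HS and 0.313% lower, with log2 fold changes of -0.48 ± 0.59 for Socs1 and -0.80 ± 0.69 for Socs3. Model, week of sampling and any difference in handling cannot be told apart in either comparison.

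The other genes of the pathway were followed in lists of receptors, kinases, transcription factors, inhibitors and targets, 123 genes in all besides the SOCS family. In AngII, 75 of them were fitted and 0 met the criterion in either direction, where 1.24% of all genes did. Of these 75, 46 had a log2 fold change above 0, with a median of 0.13 against -0.01 over all genes. At an unadjusted p of at most 0.05 there were 11 of the 75 (14.7%), some higher and some lower, against 6.65% of all genes. In DOCA–HS, 77 were fitted, 1 was higher and 0 lower by the criterion, 36 were above 0 and the median was -0.05 against -0.04 over all genes. None of the 123 passed an adjusted p of 0.05 in either model in edgeR, where 2 in DOCA–HS had an unadjusted p of at most 0.05 (2.6%, against 3.2% of all genes). Without the shallow library, 78 were fitted in DOCA–HS with a median of 0.031, and 1 met the criterion, Gbp2, an interferon-induced GTPase gene (1.64 ± 0.31, SE), in place of Elob.

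The cytokine ligands listed, an input of the pathway, were barely seen in blood RNA. Of 20 in the table, 14 were at 0 throughout and none passed the filter. Il15, whose product sustains NK cells and memory T cells, had the most counts of this list. It had 7, 3, 4, 5, 10, 4, 5 and 0 counts from AngII before CMG to DOCA–HS after. Osm, which encodes the cytokine oncostatin M, was listed with the STAT targets instead and was fitted in both models. Its counts in the same order were 53, 44, 78, 45, 49, 21, 35 and 4. Il23a, which encodes a subunit of IL-23, had at most 2 counts in a library.

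Receptor chains were well represented, with 19 of 29 fitted in AngII (median log2 fold change 0.43) and 20 in DOCA–HS (0.07), and 0 met the criterion in either. In AngII, 3 had an unadjusted p of at most 0.05 in edgeR's quasi-likelihood test. These were Il10ra (1.45 ± 0.32), Csf2ra (0.97 ± 0.31) and Il2rb (0.95 ± 0.30, SE), all higher. Csf3r, the G-CSF receptor on which SOCS3 docks, held 29.7 and 38.8 normalized CPM in AngII before CMG and 53.9 and 46.1 after, a log2 fold change of 0.57 ± 0.32 (SE). In DOCA–HS it held 27.5 and 58.0 before and 62.2 and 16.9 after (-0.07 ± 0.67). Il2rg, the common gamma chain, held 34.6 and 37.6 before and 37.1 and 42.2 after CMG in AngII (0.16 ± 0.30). Its log2 fold change in DOCA–HS was -0.66 ± 0.57. Without the shallow library the DOCA–HS values were 0.56 ± 0.35 for Csf3r and -0.12 ± 0.35 for Il2rg, and the receptor median was 0.15. Neither Csf3r nor Il2rg had the pattern of Socs1 and Socs3.

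The 4 JAK kinases had median log2 fold changes of 0.04 in AngII and -0.35 in DOCA–HS. Jak1 had 0.12 ± 0.33 and -0.82 ± 0.77, and Jak3, which pairs with the common gamma chain, -0.04 ± 0.32 and -0.22 ± 0.45 in AngII and DOCA–HS (SE). The 7 STAT factors had medians of 0.31 and -0.14. Stat6, the factor of IL-4 signals, had -0.10 ± 0.35 and -0.63 ± 0.56 (SE). Without the shallow library the DOCA–HS medians were 0.092 for the kinases and 0.12 for the STAT factors, the opposite sign of those with it, and Jak1 stood at -0.05 ± 0.39, Jak3 at -0.03 ± 0.33 and Stat6 at -0.09 ± 0.35. None of these kinases or factors met the criterion in either model.

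The 12 other inhibitors of cytokine signalling had median log2 fold changes of 0.13 in AngII and -0.02 in DOCA–HS, with 0 past the criterion. Ptprc, the phosphatase CD45 of all leukocytes, had 0.05 ± 0.35 and -0.44 ± 0.58 in AngII and DOCA–HS. Ptpn6, the phosphatase SHP-1, had 0.64 ± 0.31 and 0.07 ± 0.46 (SE). The STAT target genes, 17 fitted in AngII and 18 in DOCA–HS, had medians of 0.13 and 0.06. Bcl2l1, which encodes the survival factor BCL-XL, had -0.49 ± 0.55 and 0.82 ± 0.65, and Pim1, a STAT-induced kinase, -0.54 ± 0.39 and 0.17 ± 0.61 (SE). With all libraries no STAT target gene met the criterion in either model. At an unadjusted p of at most 0.05 in edgeR's quasi-likelihood test there were 5 of the 17 in AngII, against 6.65% of all genes. In DOCA–HS there was 1 of the 18, against 3.2%. Of those in AngII, Bcl6 (1.29 ± 0.29), Cebpd (1.44 ± 0.36), Pim2 (0.98 ± 0.42) and Fcgr1a (0.92 ± 0.31) were higher. Myc was lower (-0.87 ± 0.35, SE). Without the shallow library the DOCA–HS medians were 0.07 for the inhibitors and 0.065 for the targets, and the values were 0.01 ± 0.43 for Ptprc, 0.10 ± 0.36 for Ptpn6, 0.01 ± 0.45 for Bcl2l1 and -0.54 ± 0.42 for Pim1.

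The partners that build the ubiquitin ligase on the SOCS box numbered 8, with median log2 fold changes of -0.29 in AngII and 0.24 in DOCA–HS. Elob, which encodes elongin B, was the pathway gene past the criterion in DOCA–HS, at 2.27 ± 0.81 (SE, adjusted p = 0.996 in edgeR's quasi-likelihood test). It held 83.1 and 99.6 normalized CPM before CMG and 147 and 734 after, so that both libraries after CMG lay higher and the second, the shallow one, far higher. Without that library the log2 fold change was 0.69 ± 0.40. In AngII, Elob held 159 and 218 before and 200 and 144 after CMG (-0.10 ± 0.38). Arih2, a ligase that works with cullin 5, had -0.28 ± 0.37 in AngII and -0.48 ± 0.45 in DOCA–HS, or -0.62 ± 0.33 without the shallow library, when the list's median was -0.097. Rnf7, with 1 to 20 counts per library, had -1.38 ± 0.60 in AngII and -1.16 ± 0.74 in DOCA–HS. Without the shallow library it had -1.17 ± 0.71 (SE).

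Other proteins with a SOCS box outside the family were covered by 25 genes, of which 10 were at 0 throughout and 8 were fitted in each model, with medians of -0.10 and -0.07. Asb1 had log2 fold changes of -0.45 ± 0.38 in AngII and 0.49 ± 0.68 in DOCA–HS, and Wsb1 of 0.59 ± 0.29 and -0.18 ± 0.57 (SE). Without the shallow library the DOCA–HS values were -0.44 ± 0.42 for Asb1 and 0.34 ± 0.32 for Wsb1, with a median of -0.056 over 9 genes. None met the criterion in either model.

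**Figure D4:**
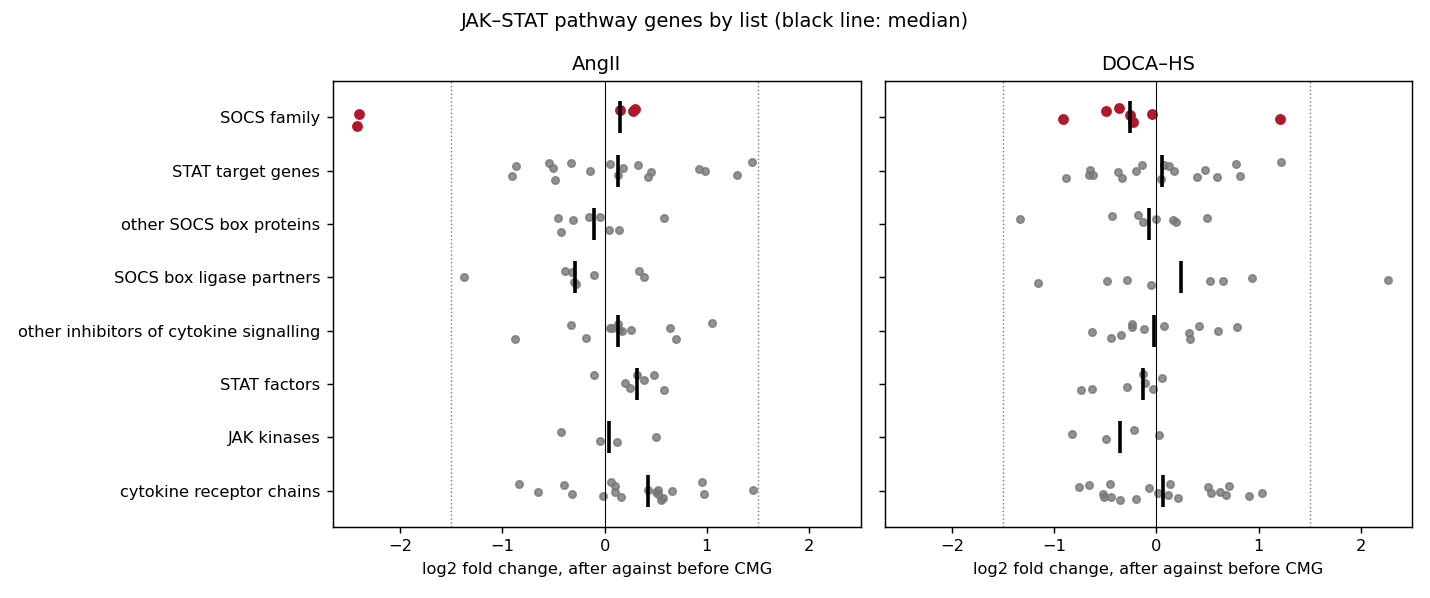
Log2 fold change after against before CMG (x axis) of each fitted gene in the lists of the JAK–STAT pathway and in the SOCS family (y axis), in AngII (left) and DOCA–HS (right). Each point is 1 gene, the black line is the list's median and dotted lines mark 1.5 either way. In AngII the points beyond a dotted line are Socs1 (-2.42) and Socs3 (-2.40), and in DOCA–HS the point beyond is Elob (2.27).

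Across the 8 libraries, the log2 levels of Socs1 and Socs3 had a Pearson r of 0.80, the highest of any pair among the 7 members. The points share libraries, depth and the 4 groups, so r describes these libraries and carries no p. Among 7400 genes ranked by likeness, the closest to Socs1 was Nfkbia (r = 0.97), which encodes the NF-κB inhibitor IκBα. Its levels were 63.7 and 61.3 normalized CPM in AngII before CMG and 19.5 and 22.2 after, and 23.7 and 22.8 in DOCA–HS before CMG and 17.3 and 25.3 after. Nfkbia was thus highest in the same 2 libraries, a pattern met by 4.17% of 7994 genes. A ranking by likeness to Socs1 or Socs3 favours genes with this pattern. Next came Smndc1, Hnrnpul1, Bloc1s4 and Herpud1, with r from 0.92 to 0.95.

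The closest to Socs3 was Nfkbiz (r = 0.94), which encodes another protein of the IκB family. It held 19.2 and 13.8 normalized CPM in AngII before CMG and 7.19 and 4.58 after, and 10.96 and 3.93 in DOCA–HS before CMG and 7.07 and 2.11 after. Per1, a repressor of the circadian clock, Rgs1, Plcg1 and Cenpq followed with r from 0.93 to 0.94. Rgs1, a regulator of G protein signals in lymphocytes, held 16.7 and 16.4 in AngII before CMG and at most 6.39 in the other 6 libraries. The genes closest to Cish were Gprasp1, Aacs, Ppp1r37, Phf1 and Stxbp2 (r from 0.93 to 0.94), none of which was among the 5 closest to Socs1 or Socs3.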

How the data were processed

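Whole-blood RNA was sequenced as single-end reads. Cardiac puncture into heparin is the only route the labels name, whereas the study's methods describe repeated sampling. The authors aligned reads to rn6 with HISAT2, counted them by strand with HTSeq and deposited raw counts per gene. Their methods exclude hemoglobin annotations, yet Hbb and LOC100134871 (taken here as hemoglobin) hold most counts.

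The authors used DESeq2. Here counts were tested with edgeR 4.0.16 (R 4.3.3, filterByExpr, TMM, estimateDisp, glmQLFit, glmQLFTest), in the 4 libraries of each model and in all 8 between models. Levels are CPM with TMM factors of the 8-library fit. DESeq2 1.42.0, other scalings and filters, a replicate block and leaving out each library were the alternatives. The scripts were tested on simulated data. Chi-square per degree of freedom between the libraries of a group was 15.4 to 94.6. The members and lists were chosen with earlier results of these data known. Named were all members, pathway genes past the criterion, the 2 highest of each pathway list, and for Socs1, Socs3 and Cish the 5 genes of highest r (log2 CPM, prior count 2, mean of at least 10 counts). Single marker genes, Osm and pathway genes outside this rule were named after their values were seen. A gene that this rule names is not reported here.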

Additional observations from a re-analysis of the deposited data

How the results depend on the processing

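The 2 members past the criterion in AngII, Socs1 and Socs3, were the same under DESeq2, DESeq2 size factors, total counts, counts outside hemoglobin, no filter, the replicate block and 1 fit over 8 libraries. In these settings 0.167% to 0.598% of all genes were lower. The AngII contrast selected the family, and the comparison between models before CMG shares its libraries. In both, the count of members past the criterion is a description without a test. With a minimum of 10 counts in each library the count was 1, as Socs1 was filtered out, and with single libraries left out it ranged from 1 to 2. In DOCA–HS it stayed at 0 except with libraries left out (0 to 2): without the first library after CMG, Socs3 (-2.16) and Socs5 (-2.05) met the criterion on 2 counts each, in a fit with 13.6% of all genes lower. Between models before CMG it was 0 with total counts, 1 outside hemoglobin and 2 to 3 with libraries left out, the third being Socs4 without the first DOCA–HS library, when the library left had 0 counts. Under that minimum no member was left in the DOCA–HS fit or between models.

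Counts of all genes past the criterion moved most. For AngII, 89 genes became 222 with total counts, 238 outside hemoglobin, 201 with no filter and 22 with at least 10 counts, and 124 to 403 with libraries left out. For DOCA–HS, 157 became 9, 32, 268 and 32, and 28 to 1711. Between models before CMG, 67 became 284 outside hemoglobin, 146 with no filter and 2 with at least 10 counts, and 72 to 115, and after CMG 112 became 20 with total counts, 70, 211 and 16, and 71 to 1496. Pathway genes past the criterion in AngII went from 0 to 3 with total counts, 3 outside hemoglobin, 1 with no filter and 1 to 3 with libraries left out, and in DOCA–HS from 1 to 0 with total counts, 0 outside hemoglobin and 0 to 23 with libraries left out. Total counts moved the median log2 fold change of all genes to 0.36 in AngII and -0.76 in DOCA–HS and counts outside hemoglobin to 0.38 and -0.41, so their splits of higher against lower calls became 210 to 12 and 0 to 9, and 225 to 13 and 20 to 12, against 65 to 24 and 137 to 20. The cause was not tested beyond these shifts.

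With libraries left out, the log2 fold changes in DOCA–HS ranged from -6.16 to 0.15 for Socs2, -2.16 to 0.021 for Socs3, -2.05 to 0.044 for Socs5 and -1.43 to 0.48 for Cish, and in AngII from -0.43 to 0.70 for Cish and -0.32 to 0.61 for Socs5, so these directions rest on single libraries. Replicate numbers were shared by libraries before and after CMG. Deviations of same-numbered libraries correlated at 0.41 in AngII and 0.31 in DOCA–HS over genes, but with 2 numbers per model and no statement of shared rats the numbers were not taken as pairs. With the replicate block, 105 genes were past the criterion in AngII, 165 at an adjusted p under 0.05, and 141 and 0 in DOCA–HS, and Cish in DOCA–HS reversed to 0.067.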
